A study of Gallus gallus with 2 samples.

Results

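Fibroblast growth factors (FGFs) are secreted ligands that bind heparan sulfate on cell surfaces and in the matrix and signal through FGF receptors, which are tyrosine kinases. FGF-binding proteins such as FGFBP1 are secreted carriers that, in mammals, bind FGFs held in the matrix and bring them to their receptors in soluble form. In the gut, ligands made in the mesenchyme, such as FGF7 and FGF10, act on the epithelium through the epithelial form of FGFR2, and FGF9 acts in the other direction, on the mesenchyme. The genes described here are the carriers FGFBP1 and FGFBP2, the ligands FGF2, FGF7, FGF9 and FGF10, the receptors FGFR1, FGFR2 and FGFR3, and FGFRL1, a receptor-like protein that lacks the kinase domain. They are 10 of 13008 genes named on the array, read by 19 of 27166 chicken probe sets that the array annotation gives to 1 gene. FGFBP1 was chosen by its high signal on paddy rice relative to corn on these same arrays, and the other genes were added by name as the ligands and receptors it could serve, so its ratio is a description and supports nothing.

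Ileal RNA from male White Leghorn chickens fed a paddy rice-based diet was measured on 1 array, and that from chickens fed a corn-based diet, the control, on another. Each array held the pooled RNA of 3 birds out of 9 per group, taken at 3 weeks of age after 2 weeks on a diet with 650 g/kg of the grain, and the study picked birds with an ileal MUC2 mRNA level near their group's average. The diets differed in crude protein and metabolizable energy as well as in grain. The values are MAS5 signals, 1 per probe set (a group of short probes for 1 transcript), on an arbitrary linear scale, and each ratio is that of paddy rice over corn. A single array stands for each diet. There is therefore no error between replicates and no test, a ratio sets one pool against another, and its precision is limited by the number of arrays. The thresholds used for a ratio are 1.5 and 0.67. All 12 listed enterocyte markers were at or above the median signal of the chicken probe sets, with ratios between 0.902 and 1.12. FABP6, the ileal bile acid-binding protein gene, had signals of 35027 on paddy rice and 31195 on corn. No array of another gut segment was at hand, so these signals cannot check the ileal label against other segments. Markers of other cell types were also at hand. The ratios of smooth muscle markers (5 of 6 measured) ran from 0.956 to 1.05, except ACTA2 at 1.51. ACTA2 was dim, with 74.7 on paddy rice and 49.6 on corn. Those of endothelium (5 of 5) ran from 0.901 to 1.06, except PECAM1 at 0.595. Those of enteric neurons and glia (6 of 8) ran from 0.809 to 1.01, except S100B at 0.588. The level of background, taken from 689 probe sets that are neither chicken nor controls, was 45.1 on paddy rice and 44.1 on corn, and all 19 member probe sets lay above it on both arrays.

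FGFBP1 had a ratio of 2.04 and its neighbour FGFBP2 one of 0.532. By the brightest probe set, 4 of the 10 member genes had ratios above 1 and 6 below it. Of all 9240 named genes at a mean signal of 111 or more, 49.3% had ratios above 1. The ratios of FGF2, FGFR1 and the brightest FGFR3 probe set lay within the 16th to 84th percentile of probe sets of like signal. Of the 19 probe sets, 3 were above 1.5 (FGFBP1 and the 2 dimmest of FGFR2), 1 was below 0.67 (FGFBP2) and 15 lay between. These were 15.8% and 5.26% of the 19, against 12.8% above 1.5 and 13.1% below 0.67 over all 27166 probe sets with 1 gene, so that the share above 1.5 was near that of the whole array and the share below 0.67 was smaller. The spread depended on signal. At a mean signal of 111 or more, the median over chicken probe sets, 2 of 16 member probe sets (9 genes) were above 1.5 and 0 below 0.67, against 2.33% and 2.54% of all probe sets with 1 gene at that level. At a mean signal of 522 or more, the 75th percentile, FGFBP1 alone of 7 member probe sets (4 genes) was above 1.5 and 0 were below 0.67, against 0.606% and 0.442% of all. FGFBP1 was chosen for its high ratio and counts in each of these member shares above 1.5, so an excess there supports nothing. The median log2 ratio of the 10 genes, each by its brightest probe set, was -0.091, against -0.0029 for all 13008 named genes. Over the 9 genes at a mean signal of 111 or more, which leaves out FGFBP2, the median was -0.016. That of all named genes at that level was -0.0031.

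**Figure D1:**
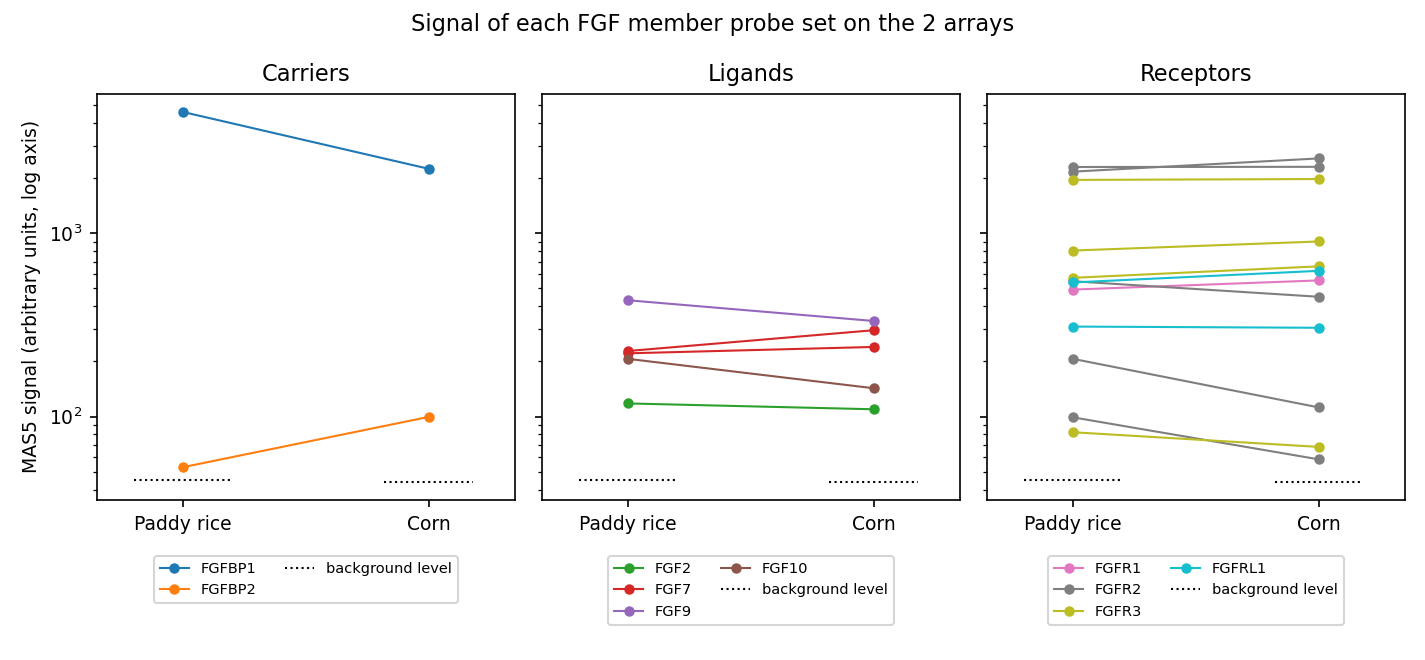
MAS5 signal (arbitrary units, log axis) of each of the 19 member probe sets on the paddy rice array and the corn array, joined by a line, for carriers, ligands and receptors; dotted marks give the background level of each array, 45.1 on paddy rice and 44.1 on corn. FGFBP1 is at 4581 on paddy rice and 2245 on corn, and FGFBP2 lies close to background at 53.0 on paddy rice.

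Of the carriers, FGFBP1 (Entrez gene 422826) had a signal of 4581 on paddy rice and 2245 on corn on its only probe set. The ratio was 2.04, or 1.03 on the log2 scale. Both signals lay far above background, and the probe set stood at percentile 94.8 of mean signal, where ratios varied little. In the same twentieth of mean signal, 1885 chicken probe sets had a central range of ratios (16th to 84th percentile) of 0.910 to 1.10, and 11 of them were above 1.5. Among the 7921 probe sets with 1 gene and a signal of 522 or more, 5 had a ratio at least as high as that of FGFBP1, itself included. Because FGFBP1 was chosen for its high ratio, its place among these probe sets follows from the choice and supports nothing. No second probe set reads FGFBP1. The summed signal of the 12 enterocyte markers was 191600 on paddy rice and 193533 on corn. That of the 5 goblet cell markers was 35258 on paddy rice and 36676 on corn, but their ratios lay on both sides of 1. SPDEF (0.785) and FCGBP (0.847) were below 1, and MUC2 (1.05), AGR2 (1.06) and ATOH1 (1.03) above it. By PCR, the study found ileal MUC2 mRNA higher on paddy rice, and it picked the pooled birds from these PCR values. The array ratio of MUC2 (1.05) was smaller than the difference found by PCR, which limits what the goblet cell markers can show. The part of enterocytes and goblet cells in the FGFBP1 value was not tested. The log2 ratios of probe sets of the same gene differed by an SD of 0.16 where their signals were 522 or more (1663 genes). This SD comes from the same 2 arrays and does not measure variation between birds or pools. It is therefore no error of the FGFBP1 ratio.

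FGFBP2 (Entrez gene 395094), a relative of FGFBP1 that in humans is made by cytotoxic lymphocytes, had a signal of 53.0 on paddy rice and 99.5 on corn, a ratio of 0.532. The paddy rice signal was only just above background (45.1), and in this part of the signal range 15.8% of 1885 probe sets were below 0.67, with a central range of 0.672 to 1.46. With the 25th percentile of all signals (34.5) added to each signal, the ratio of FGFBP2 was 0.653 and that of FGFBP1 2.02. The log2 ratio of FGFBP1 was 1.94 higher than that of FGFBP2. Of the 6 leukocyte markers, JCHAIN, the joining chain of polymeric immunoglobulins (0.126), and CD79B of B cells (0.667) were below 0.67, and the T cell genes CD3E and CD3D were at 0.984 and 0.992. Their part in the FGFBP2 value was not tested. In pooled tissue, fewer cells of a type and less RNA per cell cannot be told apart.

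**Figure D2:**
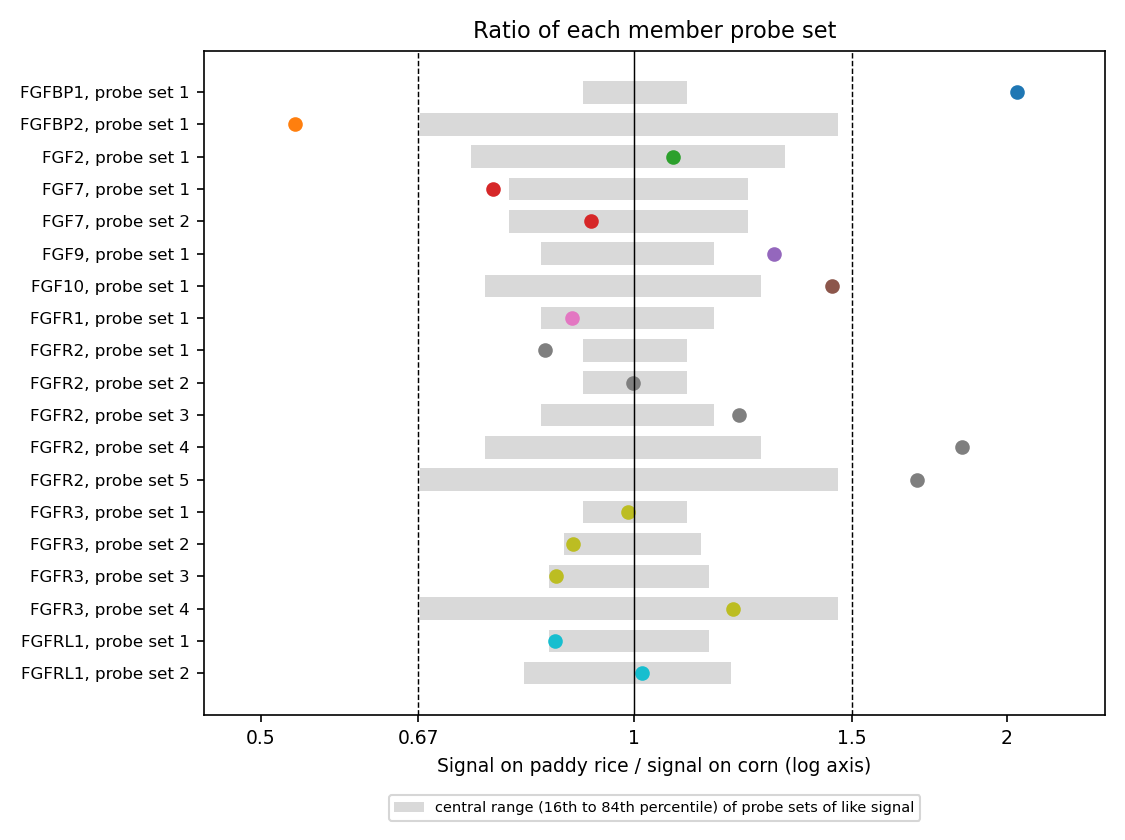
Ratio of the signal on paddy rice to that on corn (log axis) for each member probe set, numbered from the brightest within each gene; grey bars give the 16th to 84th percentile of ratios among all chicken probe sets in the same twentieth of mean signal, and dashed lines mark 0.67 and 1.5. FGFBP1, chosen for its high ratio, is at 2.04, far outside its narrow bar (0.910 to 1.10). The bars of the dimmest probe sets reach from 0.672 to 1.46.

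Of the ligands, FGF10, FGF9 and FGF2 were higher and FGF7 lower on paddy rice, and none was past a threshold. FGF10, made by mesenchyme and active on epithelial FGFR2, had a signal of 206 on paddy rice and 143 on corn, a ratio of 1.45 that lay just short of 1.5. FGF9 had a signal of 431 on paddy rice and 332 on corn, a ratio of 1.30. Both ratios were above the central range of probe sets of like signal, which was 0.758 to 1.27 for FGF10 and 0.841 to 1.16 for FGF9. By definition 16% of probe sets lie above such a range and 16% below it, so a place outside it is common. At the signal of FGF10, 5.52% of 1885 probe sets were above 1.5. FGF7, the second ligand of the epithelial receptor, had signals of 228 on paddy rice and 296 on corn on its brighter probe set, a ratio of 0.770, and of 221 on paddy rice and 240 on corn on the other, a ratio of 0.923. The ratio of the brighter probe set lay just below the central range at its signal (0.794 to 1.24) and that of the other within it. So FGF10 and FGF7 had ratios on opposite sides of 1. FGF2, which is held in the matrix by heparan sulfate, had a signal of 118 on paddy rice and 110 on corn, a ratio of 1.08 within the central range of 0.739 to 1.33. For the mesenchymal ligands, the 9 fibroblast markers had ratios between 0.932 and 1.16 and a summed signal of 92854 on paddy rice and 87581 on corn.

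Of the receptors, the brightest probe set of each gene had a ratio below 1, and the 2 dimmest probe sets of FGFR2 had ratios above 1.5. FGFR2, the receptor of FGF7 and FGF10 in its epithelial form, was read by 5 probe sets that did not move together. The brightest had a signal of 2166 on paddy rice and 2557 on corn, a ratio of 0.847 that lay below the central range at its signal (0.910 to 1.10). The second brightest had 2295 on paddy rice and 2301 on corn, a ratio of 0.998. The next, whose identifier marks probes shared between transcripts, had 547 on paddy rice and 450 on corn, a ratio of 1.22 above the central range at its signal (0.841 to 1.16). These 3 probe sets thus had no common direction. The fourth had 206 on paddy rice and 112 on corn, a ratio of 1.84, and the fifth had 99.0 on paddy rice and 58.4 on corn, a ratio of 1.69. The ratios were thus higher on the 3 dimmer probe sets than on the 2 brightest. The ratio of the fourth lay above the central range at its signal (0.758 to 1.27), where 5.52% of probe sets were above 1.5, and that of the fifth above a range of 0.672 to 1.46, where 14.0% were. The median over the 5 probe sets was 1.22. Which FGFR2 transcripts each probe set reads is not given in the sources used here, and whether the probe sets differ by transcript form was not tested.

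FGFR3 and FGFR1, the other kinases, lay close to 1. FGFR3 had 1953 on paddy rice and 1974 on corn on its brightest probe set (ratio 0.989). Its next brightest had 804 on paddy rice and 901 on corn (0.892) and 571 on paddy rice and 660 on corn (0.866). The dimmest probe set of FGFR3 had 82.1 on paddy rice and 68.3 on corn, a ratio of 1.20 that lay within the central range at its signal. FGFR1 had a single probe set with 493 on paddy rice and 553 on corn, a ratio of 0.891. FGFRL1 had 539 on paddy rice and 623 on corn on its brighter probe set, a ratio of 0.864, and 310 on paddy rice and 305 on corn on the other, a ratio of 1.02. Of the 12 probe sets of these 4 genes, the 7 with ratios below 1 ran from 0.847 to 0.998 and none was below 0.67.

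**Figure D3:**
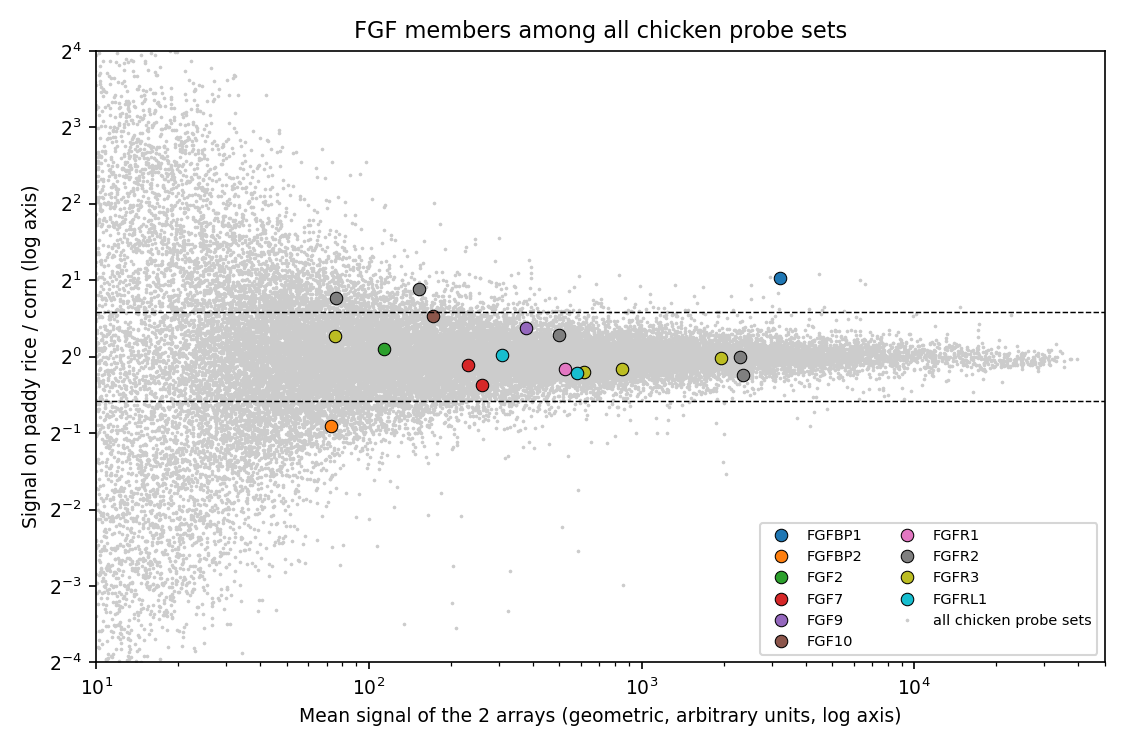
Ratio of the signal on paddy rice to that on corn against the geometric mean signal of both arrays (both log axes) for all chicken probe sets (grey) and the 19 member probe sets (coloured by gene); dashed lines mark 0.67 and 1.5, and 4102 chicken probe sets lie outside the plotted range. The cloud narrows with signal: FGFBP1 (2.04), chosen for its high ratio, lies above nearly all probe sets of like signal. FGFBP2 (0.532) and the 2 dimmest FGFR2 probe sets (1.84 and 1.69) lie in the wide part of the cloud or at its edge.

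The rest of the FGF pathway was described by 7 lists of genes, of which 91 of 101 were measured, each by its brightest probe set. Of these 91, 11 were above 1.5 and 7 below 0.67 (12.1% and 7.69%), against 8.27% and 8.57% of all 13008 named genes. Most of the 18 were dim. Of the 60 pathway genes at or above the median signal, FGF19 alone was above 1.5 (1.67%) and 0 were below 0.67, against 1.87% and 1.71% of all 9240 named genes at that level, so that these shares were near those of the whole array. Ratios above 1 were found in 37 of the 60 (61.7%), against 49.3% of the 9240. Their median log2 ratio was 0.044, against -0.0031 for all named genes at that level.

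FGF19, the hormone by which the ileum signals bile acid uptake to the liver, had a signal of 515 on paddy rice and 332 on corn, a ratio of 1.55. KLB (beta-klotho), the co-receptor that FGF19 needs, had 1324 on paddy rice and 1007 on corn, a ratio of 1.31, and FGFR4, its usual receptor kinase, had 506 on paddy rice and 602 on corn, a ratio of 0.841. FGF1, a ligand of all FGF receptors, had 555 on paddy rice and 605 on corn on its brightest probe set (ratio 0.917). None of the other 9 measured ligands stood clear of background: 8 lay under it on both arrays, and FGF6 had 36.7 on paddy rice and 45.0 on corn. FGF12, an FGF-like protein kept inside the cell, had 52.4 on paddy rice and 31.1 on corn, where it was not above background. Its paddy rice signal was 1.19-fold the background level of corn. KL (klotho), by its brightest probe set, was not above background on paddy rice (35.1) and had 57.4 on corn. Its corn signal was 1.27-fold the background level of paddy rice. Its other 3 probe sets were under background on both arrays, and 2 of them had the higher signal on paddy rice. In these folds the background level stands in for the dim signal and the brighter signal is taken as exact. They are therefore no lower limits of a difference.

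Of the heparan sulfate genes, through which FGFs are stored, none of the 24 at or above the median signal was past a threshold, where 1.87% and 1.71% of all named genes were. Among 12 measured proteoglycans, the 8 at that level had ratios between 0.814 for SDC1 (syndecan-1, the main epithelial one) and 1.28 for GPC1, with HSPG2 (perlecan) at 1.07. SDC1 had 1700 on paddy rice and 2088 on corn. Among the 20 genes of heparan sulfate synthesis and trimming, 16 were at that level, with ratios between 0.762 for the sulfatase SULF2 and 1.44 for EXTL2. XYLT2, which starts glycosaminoglycan chains, had 122 on paddy rice and 53.1 on corn on its brightest probe set (ratio 2.30, below the median signal). Its other probe set, marked as shared, had 72.3 on paddy rice and 59.0 on corn, a ratio of 1.22.

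Inside the cell, the adaptors, feedback inhibitors and transcriptional targets also lay mostly between the thresholds. Of 19 measured adaptors and RAS-MAPK genes, 16 were at or above the median signal, with ratios between 0.683 for the ubiquitin ligase gene CBL and 1.21 for MAP2K2, and GRB2 at 1.02 (5526 on paddy rice and 5404 on corn). CRKL, a dim adaptor, was at 0.576 on its brightest probe set, which is marked as shared, and at 1.98 on the next. Of 17 measured feedback inhibitors and targets, 12 were at or above the median signal, with ratios between 0.816 for CCND1 and 1.28 for DUSP6. The median log2 ratio of the 12 was 0.0998, against -0.0031 for all named genes at that level. There it was -0.122 for 5 co-receptors and receptor partners and 0.029 for 8 proteoglycans. It was 0.064 for 16 synthesis and trimming genes and 0.015 for the 16 adaptors and RAS-MAPK genes. Those of the other ligands (0.254) and of the FGF-like factors kept inside the cell (-0.296) rest on 2 genes and 1 gene. DUSP6, a phosphatase induced by FGF signalling that turns off the MAP kinase ERK, had 898 on paddy rice and 701 on corn. The inhibitor SPRY2 (sprouty 2) had 1355 on paddy rice and 1397 on corn, a ratio of 0.970, while DUSP4 and DUSP5, phosphatases related to DUSP6, were higher on paddy rice, DUSP4 with 189 on paddy rice and 152 on corn and DUSP5 with 484 on paddy rice and 412 on corn. The targets EGR1, ETV5 and ETV1 were at 1.11, 1.07 and 0.946, and ETV4, below the median signal, was at 0.783. A ratio above 1 was found in 8 of the 12 that reached the median signal, against 49.3% of all 9240 named genes at that level. With only 12 genes, the gap between these shares comes to few genes, and it was not tested. SPRY4 was at 1.63 on its brightest probe set, which is marked as shared, with 91.4 on paddy rice and 55.9 on corn. It was at 1.23 on the next, and both were below the median signal. A further SPRY4 probe set, at 2.41, was under background on both arrays.

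**Figure D4:**
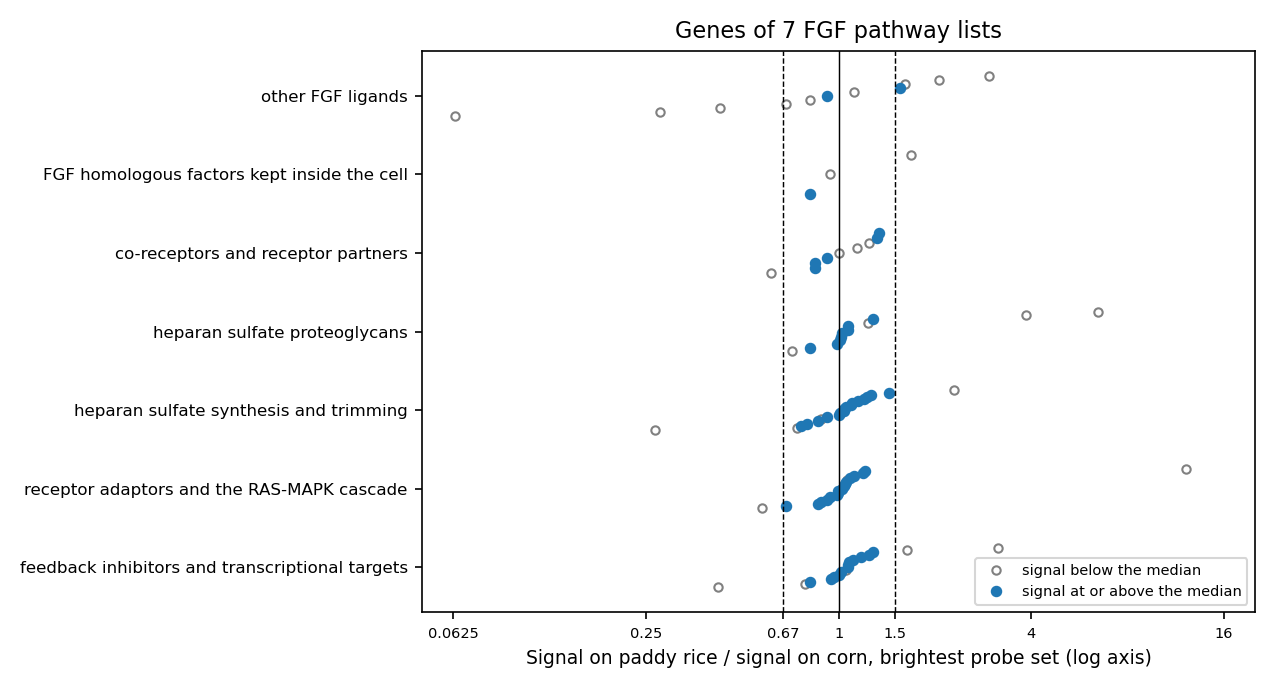
Ratio of the signal on paddy rice to that on corn (log axis) for the 91 measured genes of the 7 pathway lists, 1 point per gene by its brightest probe set; filled points are at or above the median signal and open points below it, and dashed lines mark 0.67 and 1.5. Filled points lie between the dashed lines except FGF19 at 1.55, and the far ratios are open points.

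The genes most like FGFBP1 in their signals on both arrays, by the distance between brightest probe sets in log2 signal over the 2 arrays, were INSIG1 (distance 0.15), DDX60 (0.17), CD63 (0.29), EDEM1 (0.40) and NGLY1 (0.40). They had ratios of 1.77, 2.07, 1.53, 1.45 and 1.41, against 2.04 for FGFBP1. The other probe sets of these genes had lower ratios, down to 1.39 for INSIG1, 1.46 for DDX60, 1.00 for EDEM1 and 1.04 for NGLY1, while CD63 has 1 probe set, and the probe sets used for INSIG1 and NGLY1 are marked as shared. With 2 arrays, this likeness says only that a pair of signals was similar.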

How the data were processed

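Pooled ileal RNA was hybridised to GeneChip Chicken Genome Arrays. The authors summarised the probes with MAS5, which the submitters' processing notes also name. The deposited values are linear signal intensities with the same trimmed mean on both arrays (500.1 after leaving out 2% at each end). There are no detection calls. The background level is the 95th percentile of the 689 probe sets that the array's naming marks as neither chicken, control nor reporter.

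Of 37693 chicken probe sets, 27166 had 1 gene in the platform annotation, and 26851 of these were matched to current symbols through the Entrez identifier and the RefSeq table of GRCg7b. Coordinates were used only to order the genes around FGFBP1, and no sequences were used. Genes with several probe sets take the one with the highest mean log2 signal. Named are all members, up to 4 genes per list past a threshold and above background, FGF19, DUSP6, SPRY2, KLB, and the 5 genes nearest to FGFBP1. Outside this rule, and chosen after their values were seen, are FGF1, FGF6, FGFR4, SDC1, GPC1, HSPG2, SULF2, EXTL2, CBL, MAP2K2, GRB2, CCND1, DUSP4, DUSP5, EGR1, ETV1, ETV4 and ETV5. The markers ACTA2, PECAM1 and S100B were also named after their values were seen. Of the 101 listed pathway genes, those beyond the 91 measured were not analysed here. Members, lists and the background rule were chosen with earlier results of these data known. The ratio calls and rescaling were tested on simulated data. Alternatives were median, quantile and loess scaling (fraction 0.3), an added offset of 34.5, signal filters, omission of shared probe sets, the median of all probe sets of a gene, and thresholds of 2 and 0.5. The tools were pandas 2.3.3 and numpy 2.4.6 in Python 3.11.15, with statsmodels 0.14.6 for loess, scipy 1.17.1 for ranks and matplotlib 3.10.9 for plots.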

Additional observations from a re-analysis of the deposited data

How the results depend on the processing

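The ratio of FGFBP1 lay between 2.02 and 2.04 in each alternative run, the other scalings and the added offset included. Of the 3 member probe sets above 1.5, 2 were left with the offset added, under which the dimmest FGFR2 probe set was at 1.44, 1 among signals of 522 or more (the 75th percentile) and 1 with a threshold of 2. The 1 below 0.67 (FGFBP2) gave a count of 0 among signals of 111 or more (the median), 0 among those of 522 or more and 0 with a threshold of 0.5. The median log2 ratio of the member genes was -0.091 and became 0.0079 when a gene took the median of all its probe sets, a setting under which FGFR2 was at 1.22 in place of 0.847. With that setting the median of all measured feedback inhibitors and targets was 0.029 in place of 0.098. That of the 11 other FGF ligands measured was 0.16 in place of -0.12. Of these 11, 8 lay under background on both arrays by their brightest probe set, so both medians rest mostly on signals too dim to read. The ratio of FGF10 ran from 1.36 to 1.47 over the alternatives and that of FGF9 from 1.27 to 1.32, with no call. FGFBP1, FGFBP2, FGF2, FGF9, FGF10 and FGFR1 rest on 1 probe set each, so a choice between probe sets could not be tried for them. No paired analysis was possible because there is 1 array per diet, and for the same reason no replicate could be left out. Signals near background limit what FGFBP2, FGF12, KL and the dimmest FGFR2 probe set can show.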

Other observations

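FGFBP1 lies next to FGFBP2 in the RefSeq gene order of GRCg7b, and the protein-coding genes around them were looked up after the values of both had been seen. On the FGFBP2 side, PROM1, a membrane protein gene of stem and progenitor cells, had 284 on paddy rice and 379 on corn on its brightest probe set (ratio 0.749), but its 4 probe sets ran from 0.165 to 9.91. Beyond it, TAPT1 was at 1.06 and LDB2 at 0.944. On the FGFBP1 side, CD38 was at 0.995 with 496 on paddy rice and 499 on corn, BST1 at 0.892, FBXL5 at 0.943 and CC2D2A at 1.04. The ratios of FGFBP1 (2.04) and FGFBP2 (0.532) were known before this look, so their being past 1.5 or 0.67 is no result of it. By their brightest probe sets, the others of these 9 genes lay between the thresholds. Over all 13008 named genes, 8.27% were above 1.5 and 8.57% below 0.67.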
